A study of Mus musculus with 6 samples.

Results

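*Foxp3*, the transcription factor that defines regulatory T cells (Tregs), was examined together with the noncoding transcript *Flicr* from the same locus and with 8 factors that induce *Foxp3* or work with its protein, namely *Runx1*, *Cbfb*, *Foxo1*, *Foxo3*, Eos (listed under its gene symbol *Ikzf4*), *Gabpa*, *Creb1* and *Usp7*. These 10 genes were chosen by name from what is known of the *Foxp3* locus, out of 56748 genes in the deposited table. Earlier results of these data were known when they were chosen. All 10 were counted in every library and passed the filter on low counts. RNA was taken from wild-type (WT) mouse CD4 T cells, of splenocytes by the labels and of lymph nodes too by the methods of the study, that had been kept for 3 days in medium that drives naïve cells toward the Treg fate. An antisense oligonucleotide (ASO), a short synthetic strand that pairs with a matching RNA, was present throughout. In 3 libraries the ASO had a scrambled sequence that serves as the control, and in the other 3 it was directed at *Pgam*, the glycolytic enzyme phosphoglycerate mutase. The cells were not sorted before RNA was made, so each library holds every cell of its culture, and fewer Tregs cannot be told apart from less *Foxp3* RNA per cell.

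FOXP3 is a forkhead protein encoded on the X chromosome, and its gene is switched on when naïve CD4 cells receive antigen, IL-2 and TGF-β signals. RUNX1 binds DNA with its partner CBFβ, and FOXO1 and FOXO3 bind as forkhead proteins that are held in the cytoplasm when AKT is active. GABPA and CREB1 bind elements of the *Foxp3* locus, Eos is a zinc finger partner through which FOXP3 silences genes, and USP7 is a deubiquitinase that keeps FOXP3 protein from being degraded.

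*Flicr*, a long noncoding RNA of mature Tregs that is known to restrain *Foxp3* in cis, had been listed among the members as the antisense transcript of *Foxp3*, and the annotation places it differently. In GENCODE M21 (GRCm38), *Flicr* lies at chrX:7573600-7581027 and *Foxp3* at chrX:7573644-7595245, both on the + strand. The gene that *Flicr* runs against is *Ppp1r3f*, on the - strand, with which it shares 310 exonic bases. *Flicr* and *Foxp3* have 853 exonic bases in common, 23.8% of those of *Flicr* and 18.6% of those of *Foxp3*. At the level of transcripts, 21.5% of the 31-base stretches of *Flicr* also occur in *Foxp3*, so reads from these stretches cannot be assigned to either gene on sequence alone. *Cbfb* and USP7 also depart from the description of the members as transcription factors, since CBFβ is the subunit without DNA contacts of its own and USP7 is an enzyme.

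The sequence before the start of 3 members is shown because *Foxp3*, *Flicr* and *Foxo1* were the members that differed most between the groups. The bases come from RefSeq (GRCm38.p6), which listed starts for 9 of the 10 members, and they are given 5′ to 3′ on the + strand, with matches to the searched motifs in capitals. The *Foxp3* bases (chrX:7579426-7579566) run from 250 to 110 bases before its first RefSeq start and lie inside an exon of *Flicr*. Those of *Flicr* (chrX:7573350-7573599) are the 250 bases before its start and are protein-coding sequence of *Ppp1r3f* on the opposite strand. Those of *Foxo1* (chr3:52268087-52268335) end 2 bases before its start and lie in no annotated exon.
Foxp3: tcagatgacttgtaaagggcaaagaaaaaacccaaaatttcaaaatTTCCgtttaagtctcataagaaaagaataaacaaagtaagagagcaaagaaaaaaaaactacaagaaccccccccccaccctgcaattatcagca
Flicr: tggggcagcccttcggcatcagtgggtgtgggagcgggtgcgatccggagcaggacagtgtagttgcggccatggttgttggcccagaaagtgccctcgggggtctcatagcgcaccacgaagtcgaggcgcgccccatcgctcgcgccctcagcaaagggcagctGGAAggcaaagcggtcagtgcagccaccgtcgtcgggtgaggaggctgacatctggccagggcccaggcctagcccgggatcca
Foxo1: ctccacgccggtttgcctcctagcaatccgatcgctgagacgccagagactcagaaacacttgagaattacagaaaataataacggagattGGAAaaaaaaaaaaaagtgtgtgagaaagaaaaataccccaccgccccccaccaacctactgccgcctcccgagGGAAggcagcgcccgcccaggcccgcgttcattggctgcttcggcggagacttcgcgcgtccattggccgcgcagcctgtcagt
The capitals mark GGAA, the core that ETS proteins such as GABPA recognize, or its reverse complement TTCC. That core was found before all 11 RefSeq starts of the members and before 93.5% of 32841 starts in the genome, over the same 250 bases and on both strands. A longer form, CGGAAG, which contains GGAA, occurred only before the start of *Gabpa* among these members, against 13.6% of all starts. The CRE core TGACG, part of the full CRE TGACGTCA, occurred once, before *Foxo3*, against 17.8% of all starts. The full CRE, the RUNX core TGTGGT, the forkhead motif GTAAACA and the SMAD motif GTCTAGAC were found before 0 of the 11 starts, against 1.55%, 14%, 3.17% and 0.167% of all starts. A match is an exact run of letters, so variant spellings of a motif were not counted. Sites farther from the start were not searched.

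**Figure D1:**
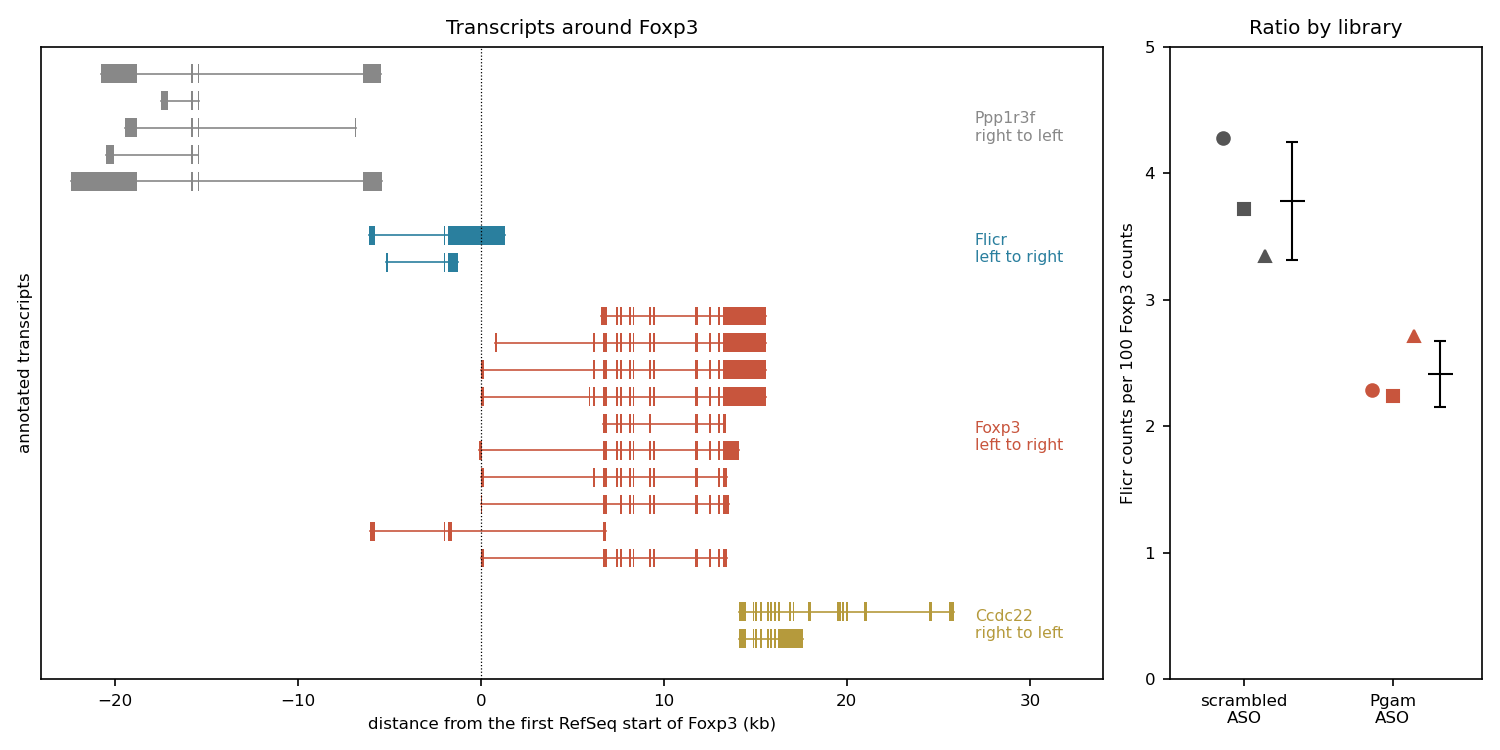
Left, annotated transcripts around Foxp3 by distance from its first RefSeq start in kb, with boxes for exons and lines for introns; the last exon of Flicr crosses the start of Foxp3, and Ppp1r3f and Ccdc22 run the opposite way. Right, Flicr counts per 100 Foxp3 counts in each library, with bars for mean ± SD of 3 libraries per group; the libraries labelled Pgam ASO sit between 2.24 and 2.71, below those labelled scrambled ASO, between 3.35 and 4.28.

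The targeted genes were examined first, to check the labels. Values are given throughout in the order of replicates 1, 2 and 3, in CPM after TMM scaling, and SE is the standard error of a log2 fold change. *Pgam1* was at 600, 478 and 707 CPM in the libraries labelled scrambled ASO, and at 658, 661 and 707 CPM in those labelled *Pgam* ASO. *Pgam2* was at 5.23, 6.75 and 2.85 CPM, and at 2.98, 2.69 and 2.6 CPM. The groups overlapped for both transcripts, and neither log2 fold change passed the test (0.18 for *Pgam1*, adjusted p = 0.331 by edgeR, and -0.84 for *Pgam2*, adjusted p = 0.0854 by edgeR). *Pgam2* did pass without replicate 3 labelled scrambled ASO, at -1.11 (adjusted p = 0.0144 by edgeR), and with no filter on low counts, at -0.83 (adjusted p = 0.0292 by edgeR). Since the RNA does not show the knockdown, groups are named here by their labels.

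The libraries held between 15860476 and 18032805 counts. All 8 genes listed as markers of CD4 T cells, among them *Lck* and the CD3 genes, were expressed. The most abundant, *Cd4*, was at 775, 804 and 732 CPM under the scrambled label and at 650, 651 and 697 CPM under the *Pgam* label. The 8 CD4 markers summed to 3262, 3430 and 3090 CPM, and to 2731, 2750 and 2817 CPM, lower in every *Pgam*-labelled library, and *Cd28* and *Cd5* passed the test, with log2 fold changes of -0.66 and -0.49 (adjusted p = 0.00183 and 0.0193 by edgeR). Markers of other lineages were scarce by comparison. The 6 B cell markers summed to at most 11.9 CPM in any library, with *Cd79a* the most abundant, the 7 myeloid markers to at most 10.6 CPM, with *Cd68*, the 6 erythroid markers to at most 2.87 CPM, with *Alas2*, and the 4 NK cell markers to at most 0.594 CPM, with *Klrb1c* and *Klra8* at 0 in every library. The pair of CD8 genes summed to 11.3, 13.5 and 10.8 CPM, and to 14.6, 10.9 and 15.7 CPM, with *Cd8b1* the most abundant at a log2 fold change of -0.20 (adjusted p = 0.454 by edgeR) and *Cd8a* at 1.12 (adjusted p = 0.0286 by edgeR). The 6 markers of mast cells and basophils summed to 1.69, 2.38 and 2.17 CPM, and to 6.71, 5.13 and 3.96 CPM, with *Cpa3* the most abundant, and *Gata2* passed with 1.59 (adjusted p = 0.0469 by edgeR). The calls of *Cd5* (scrambled replicate 1 or *Pgam* replicate 2), *Cd8a* (scrambled replicate 1 or *Pgam* replicate 1) and *Gata2* (any 1 library except *Pgam* replicate 3) were lost without the libraries given (edgeR adjusted p from 0.0643 to 0.221), that of *Gata2* also with limma-voom (adjusted p = 0.0714) and library size alone (adjusted p = 0.0505 by edgeR). Mitochondrial RNA made up 1.95%, 2.12% and 1.93% of counts under the scrambled label and 1.24%, 1.44% and 1.32% under the *Pgam* label. The methods of the study name a negative selection of naïve CD4 cells before culture. The part of the mast cell and CD8 genes in the results below was not tested.

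Of the 10 members, 4 were lower in the libraries labelled *Pgam* ASO and 0 were higher at an edgeR adjusted p under 0.05. Among all 14936 genes tested, 9.15% were lower, 8.03% were higher and 17.2% passed in either direction. The 4 were *Foxp3*, *Flicr*, *Foxo1* and *Foxo3*. In 8 of the 10 members every library of 1 label was above every library of the other, against 39.5% of all tested genes. Since the members were chosen with earlier results of these data known, these shares are not a test of the list. The median log2 fold change of the members was -0.23, and that of all tested genes -0.0061. The same 4 members passed with DESeq2 and with limma-voom. Leaving out single libraries changed the count to 3 without replicate 1 or 2 labelled scrambled ASO or replicate 1 labelled *Pgam* ASO, to 2 (*Foxp3* and *Flicr*) without replicate 2 labelled *Pgam* ASO, and to 5, with *Creb1*, without replicate 3 labelled scrambled ASO.

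**Figure D2:**
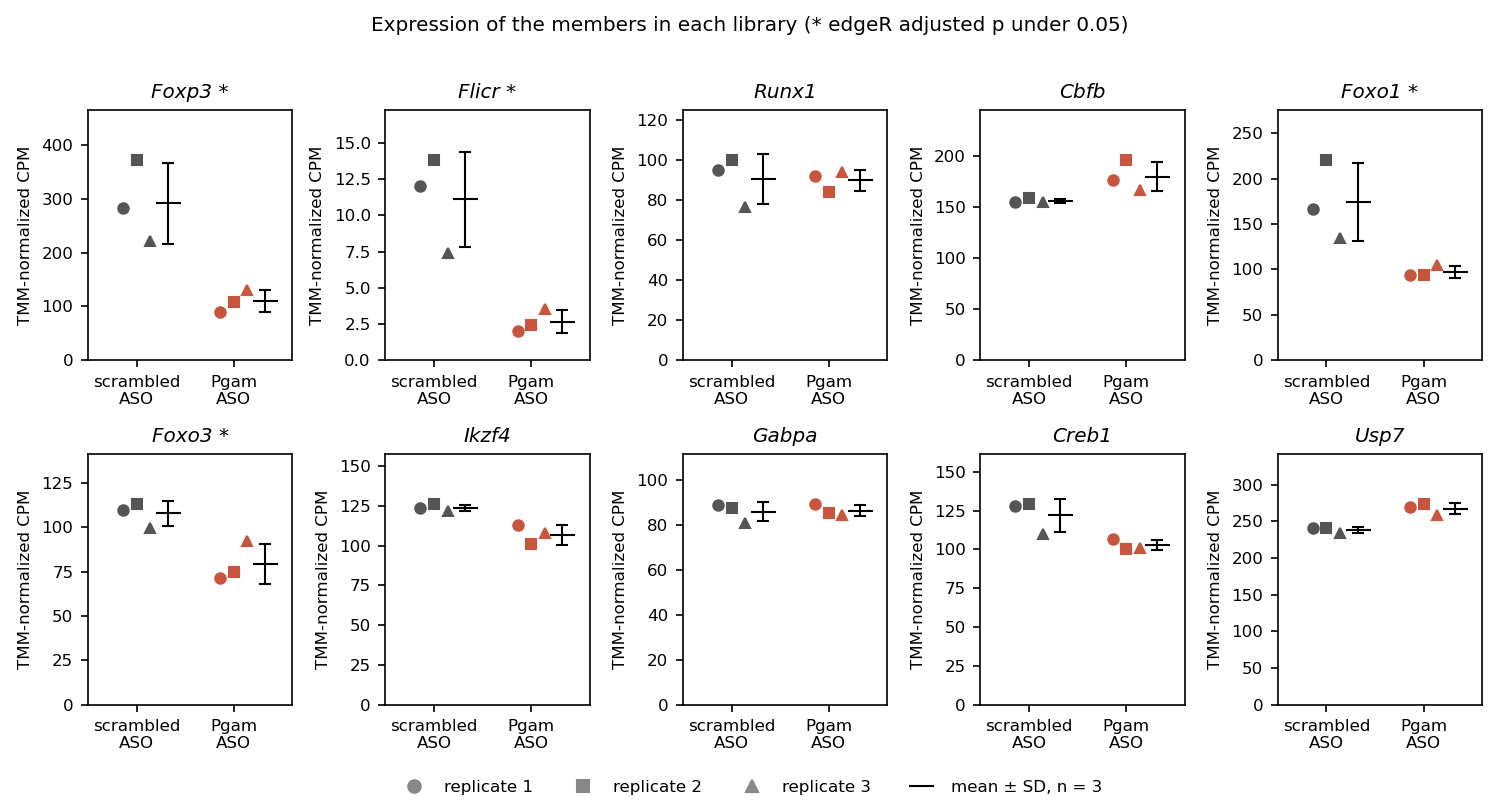
TMM-normalized CPM of the 10 members in each library, one panel per gene with an axis from 0; symbols mark replicates 1 to 3, bars give the mean ± SD of 3 libraries, and a star marks the 4 genes with an edgeR adjusted p under 0.05. Foxp3, Flicr, Foxo1 and Foxo3 are lower in every Pgam-labelled library, while the groups overlap for Runx1 and Gabpa.

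*Foxp3* (ENSMUSG00000039521) was at 282, 371 and 222 CPM in the libraries labelled scrambled ASO, and at 89.7, 109 and 131 CPM in those labelled *Pgam* ASO. Every scrambled-labelled library was higher than every *Pgam*-labelled one, and the gap between the lowest of the former and the highest of the latter was smaller than the distance between replicates 2 and 3 of the scrambled label. *Foxp3* was 2.66-fold lower, a log2 fold change of -1.41 (SE 0.20, adjusted p = 0.00567 by edgeR). Leaving out any 1 library kept it past the threshold, with log2 fold changes from -1.57 to -1.20. Summed with *Flicr* and *Ccdc22*, the genes with which it shares at least 10% of its 31-base stretches, it had a log2 fold change of -1.43 (adjusted p = 0.00571 by edgeR). *Ccdc22*, which overlaps the end of *Foxp3* on the opposite strand, was counted 0 times in every library, and 83.3% of its 31-base stretches also occur in *Gm36995*, to which its reads may have been assigned.

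*Flicr* (ENSMUSG00000039545) was far less abundant, with 214, 255 and 120 counts under the scrambled label and 33, 38 and 60 counts under the *Pgam* label. These correspond to 12, 13.8 and 7.44 CPM, and to 2.05, 2.44 and 3.55 CPM. The order of the libraries within each label was that of *Foxp3*, with scrambled replicate 2 and *Pgam* replicate 3 at the top of their groups, and the groups did not overlap. *Flicr* was 4.13-fold lower, a log2 fold change of -2.04 (SE 0.29, adjusted p = 0.00279 by edgeR), and it passed with each library left out in turn, from -2.30 to -1.86.

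To ask whether the pair moved by the same factor, *Flicr* was divided by *Foxp3* within each library. There were 4.28, 3.72 and 3.35 *Flicr* counts per 100 *Foxp3* counts in the scrambled-labelled libraries, and 2.29, 2.24 and 2.71 in the *Pgam*-labelled libraries. All *Pgam*-labelled ratios were below all scrambled-labelled ones. The mean log2 ratio was -4.73 ± 0.18 (SD, n = 3) against -5.38 ± 0.15 (SD, n = 3), a difference of -0.65 (two-sided exact permutation p = 0.1, and 3 against 3 libraries allow no smaller value). Because the genes share sequence, part of the reads counted for *Flicr* may come from *Foxp3* transcripts and the reverse, and the ratio describes the estimated counts.

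*Foxo1* and *Foxo3*, the forkhead factors that PI3K and AKT signals keep out of the nucleus, were the other members that fell. *Foxo1* (ENSMUSG00000044167) was at 167, 220 and 135 CPM, and at 93.4, 94.3 and 105 CPM in the *Pgam*-labelled libraries. Those 3 were close together, while the scrambled-labelled libraries were spread and all higher. Its log2 fold change was -0.84 (SE 0.16, adjusted p = 0.0114 by edgeR), and it missed the threshold without replicate 2 labelled *Pgam* ASO, at -0.81 (adjusted p = 0.0681 by edgeR). *Foxo3* (ENSMUSG00000048756) was at 110, 113 and 99.9 CPM, and at 71.3, 74.9 and 92.1 CPM. The groups did not overlap, although *Pgam* replicate 3 came near the lowest scrambled-labelled library. Its log2 fold change was -0.44 (SE 0.11, adjusted p = 0.0251 by edgeR). That call was lost without scrambled replicate 1 (-0.43, adjusted p = 0.092 by edgeR), scrambled replicate 2 (-0.40, adjusted p = 0.0535 by edgeR), *Pgam* replicate 1 (-0.36, adjusted p = 0.0896 by edgeR) or *Pgam* replicate 2 (-0.40, adjusted p = 0.123 by edgeR).

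Genes known to be driven by FOXO factors in T cells lay in the same direction. All 9 target genes reported here were lower on average in the *Pgam*-labelled libraries, with no overlap between the groups in any of them. Of these, 7 passed the test (edgeR adjusted p under 0.05). A gene of the list is left out here, and the list was chosen with earlier results of these data known. Among all tested genes 39.5% did not overlap and 9.15% passed as lower. The median log2 fold change of the 9 was -1.68, against -0.0061 for all tested genes. The most abundant per length, *Ccr7*, the chemokine receptor that guides T cells into lymph nodes, was at 802, 819 and 888 CPM, and at 202, 212 and 273 CPM. It had a log2 fold change of -1.87 (adjusted p = 9.27e-05 by edgeR). *Sesn1*, which encodes the stress-induced protein sestrin 1, was at 84.3, 131 and 63 CPM, and at 23.4, 30.3 and 39.7 CPM. *Ccr7* was tight within each label, whereas *Sesn1* spread within both and still did not overlap. Its log2 fold change was -1.58 (adjusted p = 0.0214 by edgeR). *Bcl2l11*, which encodes the cell death protein BIM, fell by 2.06 on the log2 scale (adjusted p = 0.0267 by edgeR), and *Txnip*, an inhibitor of glucose uptake, by 1.68 (adjusted p = 0.0347 by edgeR). *Klf2* and *Pik3ip1*, named after their values were seen, did not pass, with log2 fold changes of -2.17 (adjusted p = 0.0888 by edgeR) and -2.02 (adjusted p = 0.0759 by edgeR), though both did without *Pgam* replicate 3 (adjusted p = 0.0148 and 0.0399 by edgeR).

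The libraries kept a common order across these genes. Scrambled replicate 2 was the highest of its label in 8 of the 9 targets and *Pgam* replicate 3 the highest of its label in 9 of 9, against 39% and 37.9% of all tested genes. The number of targets called changed with the libraries kept and with the fit. Without scrambled replicates 1, 2 and 3 in turn 2, 5 and 6 of the targets passed, and without *Pgam* replicates 1, 2 and 3 in turn 2, 1 and 9 did. With no filter on low counts 3 passed and with library size alone 5, whereas DESeq2 and limma-voom each called 9. The sign was negative for all 9 in each of these fits. *Ccr7* passed in every one of them. The calls of *Bcl2l11*, *Txnip* and *Sesn1* were lost without scrambled replicate 1 or *Pgam* replicate 1 or 2, and that of *Txnip* also without scrambled replicate 2 (edgeR adjusted p from 0.0605 to 0.126), and all 3 were lost with no filter (adjusted p = 0.11, 0.112 and 0.0913 by edgeR).

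**Figure D3:**
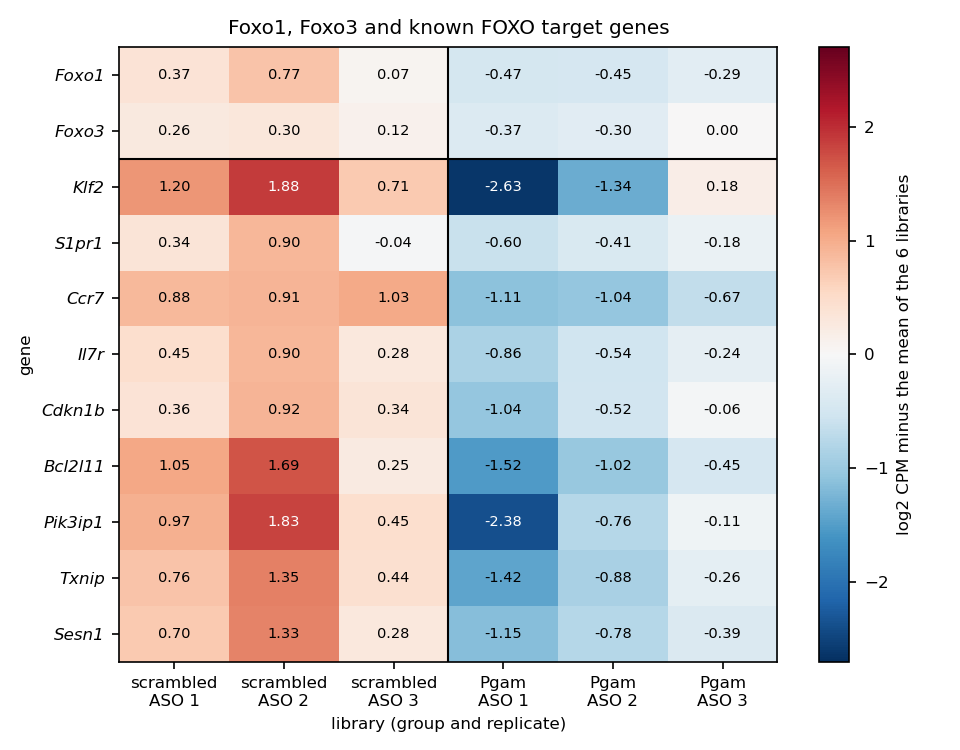
Log2 CPM of Foxo1, Foxo3 and 9 known FOXO target genes in each library, as the difference from the mean of the 6 libraries, with the value printed in each cell and red for higher, blue for lower. The 3 Pgam-labelled libraries are lower than the 3 scrambled-labelled ones in each row, and Pgam replicate 3 lies closest to the scrambled-labelled libraries in the target genes.

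*Runx1* and *Cbfb*, the subunits of core binding factor, did not pass the test. *Runx1* (ENSMUSG00000022952) was at 95, 100 and 76.5 CPM, and at 92, 84 and 94.1 CPM, with the groups overlapping. Its log2 fold change was -0.0091 (SE 0.11, adjusted p = 0.964 by edgeR), and its sign turned positive with DESeq2 and in other fits. *Cbfb* (ENSMUSG00000031885) was at 155, 159 and 155 CPM, and at 177, 196 and 167 CPM. The *Pgam*-labelled libraries were the higher ones without overlap, at a log2 fold change of 0.20 (SE 0.084, adjusted p = 0.116 by edgeR).

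The Ikaros family, to which Eos belongs, held log2 fold changes from -2.54 to 0.079, the latter for *Ikzf5*, named after its values were seen (adjusted p = 0.867 by edgeR). *Ikzf5* shares 79.6% of its 31-base stretches with *Pstk*, and reads from these cannot be assigned to either gene on sequence alone. *Ikzf4* (ENSMUSG00000002578) was at 124, 126 and 122 CPM, and at 113, 101 and 108 CPM. The scrambled-labelled libraries were tightly grouped and above all 3 *Pgam*-labelled ones, with a log2 fold change of -0.21 (SE 0.079, adjusted p = 0.0922 by edgeR). *Ikzf3*, which encodes Aiolos, was at 96.3, 147 and 61.3 CPM, and at 13.2, 15.7 and 23.3 CPM, with a log2 fold change of -2.54 (SE 0.38, adjusted p = 0.0122 by edgeR). *Ikzf2*, which encodes Helios, was at 20.2, 22.4 and 18.5 CPM, and at 10.3, 14.4 and 16.6 CPM, with a log2 fold change of -0.57 (adjusted p = 0.0484 by edgeR). *Ikzf1*, the most abundant relative per length, had a log2 fold change of -0.21 (adjusted p = 0.108 by edgeR). Differences between these family members were not tested. The call of *Ikzf3* was lost without *Pgam* replicate 2 (adjusted p = 0.0602 by edgeR), and that of *Ikzf2* without scrambled replicate 1 or 2 or *Pgam* replicate 1 or 2 (edgeR adjusted p from 0.124 to 0.139).

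Among all 18 relatives and subunit partners of the members, 16 were tested, of which 3 fell (edgeR adjusted p under 0.05) and 0 rose. Of all tested genes, 9.15% fell, 8.03% rose and 17.2% passed in either direction. The median log2 fold change of the list was -0.10. The third, beside *Ikzf3* and *Ikzf2*, was *Foxp1*, the forkhead relative of *Foxp3* that is known from quiescent T cells. *Foxp1* was at 202, 247 and 170 CPM, and at 73, 90 and 101 CPM, a clear separation of the groups. Its log2 fold change was -1.23 (SE 0.15, adjusted p = 0.00186 by edgeR).

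*Gabpa* (ENSMUSG00000008976), the DNA-binding subunit of GA-binding protein, was at 88.9, 87.5 and 80.9 CPM, and at 89, 85.3 and 84.4 CPM. The groups overlapped, although scrambled replicate 3 was below every *Pgam*-labelled library. The log2 fold change was 0.0076 (SE 0.08, adjusted p = 0.959 by edgeR). Its sign turned negative with library size alone, with a floor of 10 counts, and without scrambled replicate 3 or *Pgam* replicate 1. *Creb1* (ENSMUSG00000025958), a factor that cyclic AMP and calcium signals activate by phosphorylation, was at 128, 129 and 110 CPM, and at 107, 100 and 101 CPM. Its groups were separate by a small margin, with a log2 fold change of -0.25 (SE 0.088, adjusted p = 0.0732 by edgeR). Without scrambled replicate 3, the lowest of its label, it passed at -0.32 (adjusted p = 0.0282 by edgeR).

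*Usp7* (ENSMUSG00000022710) was at 241, 241 and 234 CPM, and at 270, 273 and 259 CPM. The *Pgam*-labelled libraries were all higher, with a log2 fold change of 0.17 (SE 0.075, adjusted p = 0.146 by edgeR). Of 16 other modifiers of FOXP3 protein (enzymes that add or remove phosphate, acetyl, methyl or ubiquitin groups), 14 were tested, of which 1 rose and 2 fell (all tested genes: 8.03% and 9.15%), and the median log2 fold change was -0.027. *Pim2*, a kinase that phosphorylates FOXP3, was at 135, 129 and 139 CPM, and at 68.6, 66 and 64.5 CPM. Both groups were narrow and far apart, with a log2 fold change of -1.01 (SE 0.079, adjusted p = 0.000251 by edgeR). *Prmt1*, an arginine methyltransferase, rose by 0.50 on the log2 scale (adjusted p = 0.0447 by edgeR), and the deacetylase *Hdac7* fell by 0.35 (adjusted p = 0.039 by edgeR). Both of these calls, unlike that of *Pim2*, were lost without any 1 of scrambled replicates 1 and 2 and *Pgam* replicates 1 and 2 (edgeR adjusted p from 0.0767 to 0.169). *Pim1*, the most abundant of the list per length, had a log2 fold change of -0.24 (adjusted p = 0.105 by edgeR).

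Of 23 further factors known to activate the *Foxp3* locus, 5 fell and 2 rose, against 9.15% and 8.03% of all tested genes, with a median log2 fold change of -0.26. *Bach2*, a repressor of effector genes needed for stable Tregs, was at 185, 216 and 147 CPM, and at 91.1, 86.6 and 95.2 CPM, and *Rel*, the NF-κB subunit c-Rel, was at 168, 172 and 161 CPM, and at 107, 94.8 and 92.6 CPM. Neither gene had any overlap, with log2 fold changes of -1.01 (adjusted p = 0.00173 by edgeR) and -0.77 (adjusted p = 0.000967 by edgeR). *Gata3*, the factor of Th2 cells, rose from 47.5, 62.2 and 35.8 CPM to 113, 82.9 and 75.2 CPM, a log2 fold change of 0.89 (adjusted p = 0.0321 by edgeR). *Rara*, the retinoic acid receptor, fell by 0.41 on the log2 scale (adjusted p = 0.0359 by edgeR). The calls of *Gata3* and *Rara* were both lost without scrambled replicate 1 or *Pgam* replicate 1 or 2, and that of *Rara* also without scrambled replicate 2 (edgeR adjusted p from 0.0635 to 0.156). *Ets1*, the most abundant of the list per length, overlapped between the groups, with a log2 fold change of -0.47 (adjusted p = 0.0697 by edgeR), and it passed without scrambled replicate 3 (-0.60, adjusted p = 0.0144 by edgeR) or *Pgam* replicate 3 (-0.56, adjusted p = 0.0409 by edgeR), with no filter on low counts (-0.46, adjusted p = 9.14e-05 by edgeR) and with DESeq2 (-0.45, DESeq2 adjusted p = 0.0188). The others in these counts, named after their values were seen, were *Smad4* and *Rela*, which fell by 0.34 and 0.28 on the log2 scale, and *Nfatc2*, which rose by 0.26 (adjusted p = 0.0472, 0.0407 and 0.0443 by edgeR). *Nfatc2* lost its call without any 1 of the 6 libraries and with library size alone, and *Smad4* and *Rela* without any 1 except scrambled replicate 3 (edgeR adjusted p from 0.0602 to 0.177), *Smad4* also with limma-voom (adjusted p = 0.055) and *Rela* with no filter on low counts (adjusted p = 0.0696 by edgeR).

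Of 16 factors that oppose *Foxp3* transcription, 5 rose, 2 fell and 9 did not pass (edgeR adjusted p under 0.05), where 8.03% of all tested genes rose and 9.15% fell, with a median log2 fold change of 0.054. *Gfi1*, a zinc finger repressor, was at 93.7, 68.4 and 98.9 CPM, and at 191, 149 and 141 CPM. The groups were well apart, with a log2 fold change of 0.88 (SE 0.16, adjusted p = 0.00887 by edgeR). *Nfil3* rose by 0.53 on the log2 scale (adjusted p = 0.0242 by edgeR). The other 3 that rose were *Akt1*, the kinase that inactivates FOXO proteins, and the DNA methylation genes *Dnmt1* and *Uhrf1*, named after their values were seen, with log2 fold changes of 0.36, 0.32 and 0.38 (adjusted p = 0.0225, 0.0276 and 0.0386 by edgeR). *Tcf7*, which encodes TCF-1 and is the most abundant of the list per length, was at 390, 573 and 277 CPM, and at 160, 168 and 217 CPM. It followed the library order of *Foxp3*, with a log2 fold change of -1.19 (adjusted p = 0.0298 by edgeR). *Rora*, a factor of Th17 cells, fell by 0.64 on the log2 scale (adjusted p = 0.00713 by edgeR). Without single libraries, the calls of *Nfil3* (scrambled replicate 1 or 2, or *Pgam* replicate 1 or 2), *Tcf7* (scrambled replicate 1, or *Pgam* replicate 1 or 2) and *Rora* (*Pgam* replicate 2) were lost, with edgeR adjusted p from 0.0506 to 0.11, and *Tcf7* was also lost with no filter on low counts (adjusted p = 0.12 by edgeR). *Akt1*, *Dnmt1* and *Uhrf1* lost their calls without scrambled replicate 1 or *Pgam* replicate 1 or 2, and *Dnmt1* and *Uhrf1* also without scrambled replicate 2 (edgeR adjusted p from 0.0556 to 0.133).

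Of 21 genes of the Treg signature, 20 were tested, and 5 fell, 1 rose and 14 did not pass, beside 9.15% lower and 8.03% higher among all tested genes, with a median log2 fold change of -0.11. *Il2ra*, the IL-2 receptor subunit CD25 and the most abundant of the list per length, was at 1946, 1627 and 2216 CPM, and at 2908, 2900 and 2495 CPM. The *Pgam*-labelled libraries were all higher, the opposite of *Foxp3*, with a log2 fold change of 0.52 (adjusted p = 0.0185 by edgeR), a call lost without scrambled replicate 1 (adjusted p = 0.0725 by edgeR), *Pgam* replicate 1 (0.0639) or *Pgam* replicate 2 (0.0967). The 3 largest decreases were in *Plagl1*, *Nt5e* and *Entpd1*. *Nt5e* and *Entpd1* encode CD73 and CD39, the enzymes that turn extracellular ATP into adenosine. *Nt5e* was at 195, 214 and 167 CPM, and at 61.4, 72.8 and 92.3 CPM, and *Entpd1* at 6.58, 6.37 and 5.58 CPM, and at 1.93, 2.69 and 2.78 CPM. Neither overlapped, and the log2 fold changes were -1.35 for *Nt5e* (adjusted p = 0.00109 by edgeR), -1.32 for *Entpd1* (adjusted p = 0.00768 by edgeR) and -1.42 for *Plagl1* (adjusted p = 0.00144 by edgeR). *Ecm1* and *Nrp1*, named after their values were seen, fell by 0.50 and 0.31 on the log2 scale (adjusted p = 0.0433 and 0.0241 by edgeR). Both calls were lost without scrambled replicate 1 or *Pgam* replicate 1 or 2, and that of *Ecm1* also without scrambled replicate 2 or 3 (edgeR adjusted p from 0.0534 to 0.154).

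Genes that FOXP3 is known to repress moved both ways, with 3 of 9 higher and 3 lower (edgeR adjusted p under 0.05; 8.03% and 9.15% of all tested genes) and a median log2 fold change of 0.015. The genes that rose were *Il2*, *Il4* and *Il17a*, while the cytokine gene *Ifng*, named after its values were seen, did not pass (log2 fold change 1.47, adjusted p = 0.0953 by edgeR) except without *Pgam* replicate 3 (adjusted p = 0.0246 by edgeR). *Il2* was at 2.42, 0.864 and 1.3 CPM, and at 30.5, 17.3 and 12.1 CPM, and *Il4* at 2.08, 1.08 and 1.73 CPM, and at 12.7, 12.1 and 7.46 CPM. In both, the library with the most counts under the *Pgam* label was replicate 1, the one with the least *Foxp3*, and replicate 3 had the fewest. Their log2 fold changes were 3.70 (adjusted p = 0.00335 by edgeR) and 2.72 (adjusted p = 0.000953 by edgeR), and that of *Il17a* was 2.02 (adjusted p = 0.0073 by edgeR). *Il2* shares 14.2% of its 31-base stretches with *Ntan1*. *Pde3b*, a phosphodiesterase that FOXP3 silences in Tregs, went the other way, from 137, 180 and 113 CPM to 37.3, 41.2 and 54.5 CPM, a log2 fold change of -1.69 (adjusted p = 0.00202 by edgeR). *Il7r* and *Ptpn22*, named after their values were seen, fell by 1.09 and 0.46 (adjusted p = 0.0116 and 0.0408 by edgeR). *Il7r* is also counted among the FOXO target genes above, so the lists are not separate. The call of *Il7r* was lost without *Pgam* replicate 2 (adjusted p = 0.0592 by edgeR), and that of *Ptpn22* without scrambled replicate 1 or 2 or *Pgam* replicate 1 or 2 (edgeR adjusted p from 0.0912 to 0.156). *Zap70*, the kinase next to the T cell receptor and the most abundant of the list per length, had a log2 fold change of -0.068 (adjusted p = 0.589 by edgeR).

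**Figure D4:**
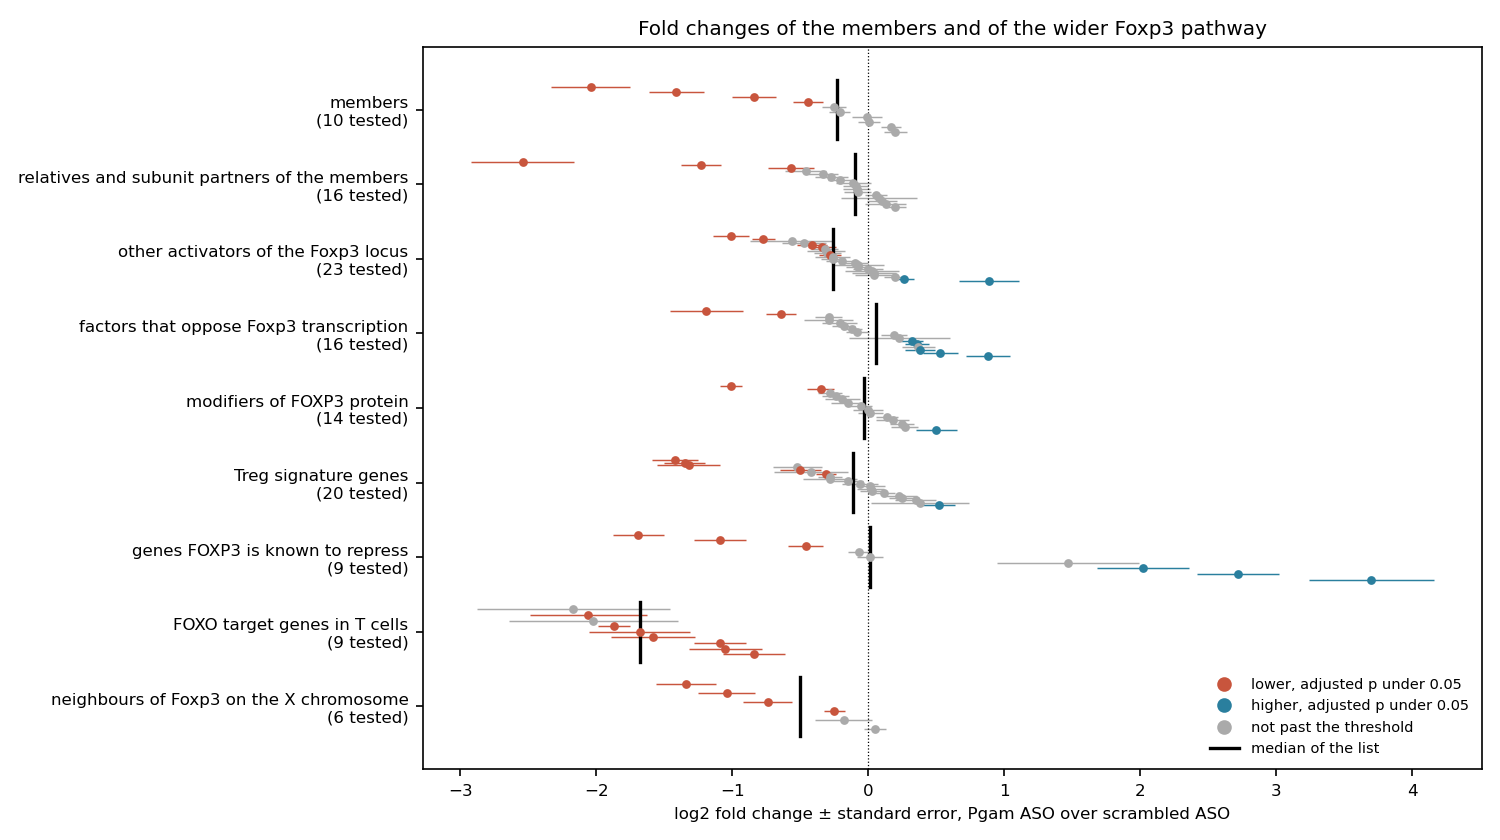
Log2 fold change (Pgam ASO over scrambled ASO) with its standard error for each tested gene, in rows by list; colour marks an edgeR adjusted p under 0.05 and the black bar the list's median. The 9 reported FOXO targets, which leave out a gene of the list, all lie below 0, with a median of -1.68. The other lists spread to both sides of 0.

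Around *Foxp3* on the X chromosome, 6 of 9 neighbours passed the filter on low counts, of which 4 fell (9.15% of all tested genes did), 0 rose and 2 did not pass, with a median log2 fold change of -0.50. *Syp*, which encodes synaptophysin, was at 6.58, 6.75 and 6.63 CPM, and at 2.67, 2.12 and 3.08 CPM, a log2 fold change of -1.34 (adjusted p = 0.00567 by edgeR). *Wdr45*, an autophagy gene, was at 21.3, 26.5 and 18.6 CPM, and at 7.64, 10.7 and 14 CPM, and *Prickle3*, a planar polarity gene, at 30.5, 40.5 and 27.7 CPM, and at 16, 19 and 24.1 CPM. Both had the library order of *Foxp3*, with log2 fold changes of -1.04 (adjusted p = 0.0138 by edgeR) and -0.74 (adjusted p = 0.0244 by edgeR). *Plp2*, the most abundant per length, changed by -0.25 (adjusted p = 0.0467 by edgeR) and shares 61.8% of its 31-base stretches with the pseudogene *Gm6169*. *Ppp1r3f*, named because *Flicr* overlaps it on the opposite strand, was at 5.06, 5.35 and 6.01 CPM, and at 4.04, 5.33 and 5.09 CPM, with overlapping groups (log2 fold change -0.18, adjusted p = 0.56 by edgeR), and it shares 46.2% of its 31-base stretches with *Gm36995*. Without scrambled replicate 1 or *Pgam* replicate 2 the calls of *Wdr45* (adjusted p = 0.0503 and 0.0784 by edgeR) and *Prickle3* (0.0645 and 0.112) were lost, that of *Prickle3* also without scrambled replicate 2 (0.0574) or *Pgam* replicate 1 (0.078), and that of *Plp2* without any 1 of the 6 libraries (0.0529 to 0.159), with RLE size factors (0.0503) and with no filter on low counts (0.0997).

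Levels of different genes were compared per kilobase of annotated exon. In the scrambled-labelled libraries *Foxp3* had the highest level of the members, 63.7 ± 16.3 CPM per kb (SD, n = 3), followed by *Cbfb* at 44.9 ± 0.656 (SD, n = 3) and *Usp7* at 30.7 ± 0.525 (SD, n = 3), each without overlap with the next. *Ikzf4*, *Foxo1*, *Gabpa* and *Foxo3* came after these at mean levels from 20.7 down to 14.2 CPM per kb, and neighbours in that order overlapped. *Creb1* and *Runx1* also overlapped, at 8.9 and 7.53 CPM per kb, and *Flicr* was the lowest at 3.09 ± 0.914 (SD, n = 3). In the *Pgam*-labelled libraries *Cbfb*, at 51.7 ± 4.17 CPM per kb (SD, n = 3), and *Usp7*, at 34.4 ± 0.975 (SD, n = 3), stood above *Foxp3*, at 24 ± 4.5 (SD, n = 3), without overlap between the 3. Divided by mean transcript length instead, a choice made after seeing the data, *Usp7* ranked above *Foxp3* also in the scrambled-labelled libraries. In the *Pgam*-labelled libraries *Usp7* then ranked above *Cbfb*, and *Foxp3* moved from rank 3 to rank 5. The order therefore rests on which length is used.

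The profile of *Foxp3* over the 6 libraries was compared with those of 11920 genes with a mean log2 CPM of at least 1. Likeness was measured as the root mean square (RMS) difference between log2 CPM values centred on each gene's own mean, so that it reads both the gap between labels and the order within them. The 5 closest were *Samhd1*, *Zbtb20*, *Dgka*, *Neurl3* and *Resf1*, with RMS differences of 0.0702, 0.0704, 0.0722, 0.0887 and 0.0918. *Dgka*, which encodes a diacylglycerol kinase that dampens T cell receptor signals, was at 674, 940 and 541 CPM, and at 250, 275 and 342 CPM. In each of the 5, as in *Foxp3*, scrambled replicate 2 was the highest and scrambled replicate 3 the lowest of its label, and *Pgam* replicates 1, 2 and 3 stood in that order from low to high. This order and their log2 fold changes, from -1.41 for *Neurl3* to -1.24 for *Resf1*, are set by the choice of these genes for closeness to the *Foxp3* profile, so no test is given for them. Among the members, *Foxo1* was nearest to *Foxp3*, at rank 314 with an RMS difference of 0.313, then *Flicr* at rank 362 with 0.325 and *Foxo3* at rank 1374 with 0.505. The remaining members ranked from 2765 (*Creb1*) to 7990 (*Cbfb*).

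**Figure D5:**
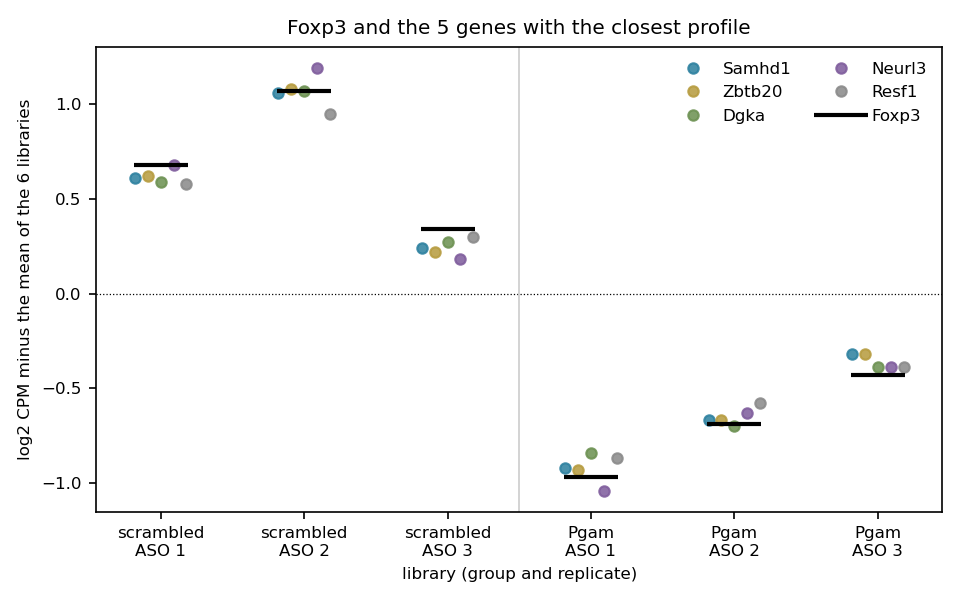
Log2 CPM of Foxp3 (black bars) and of the 5 genes with the closest profile (points) in each library, as the difference from each gene's mean over the 6 libraries. For Foxp3 the values run from 1.07 in scrambled replicate 2 to -0.97 in Pgam replicate 1, and the points lie near the bars in each library.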

How the data were processed

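RNA sequencing libraries of 6 cultures were analysed, 3 per ASO label. Gene-level estimated counts, deposited by the authors as whole numbers in 1 table, come from kallisto according to the submitters' processing notes, which name GRCm38. The kallisto version, the transcript set and the strandedness are not given in the sources used here. Of 56748 genes, 52073 had a symbol in the name table and 52125 were found in GENCODE M21.

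Genes were kept by filterByExpr (14936) and tested with the robust quasi-likelihood test of edgeR 4.0.16 in R 4.3.3, after TMM scaling (factors from 0.9721 to 1.029), two-sided, with Benjamini-Hochberg adjustment over all tested genes and a threshold of 0.05. Tested on simulated data, edgeR recovered most of the changed genes, and false genes made up a larger share of its calls than the threshold sets, as they did with DESeq2 and limma-voom. DESeq2 1.42.0, limma-voom (limma 3.58.1), RLE size factors, library size alone, no filter, a floor of 10 counts for all libraries, a block for replicate number, fits without each library, an adjusted p under 0.01, counts summed over genes sharing at least 10% of 31-base stretches and, added after seeing the data, mitochondrial genes left out were the alternatives. A floor of 3 counts corresponds to 0.166 to 0.189 CPM and covers counting error only. Log2 CPM for profiles used a prior count of 2. The study calls the libraries biological replicates, and no source used here states whether they came from separate mice, so p-values measure the spread between these libraries. Beyond the genes given with the locus, *Pgam1*, *Plp2*, *Wdr45*, *Txnip*, *Syp*, *Il2* and *Pim1* of the named genes shared at least 10% of their 31-base stretches with another gene (37.1% with *Pgam1-ps2*, 61.8% with *Gm6169*, 19.4% with *Gm45208*, 17.2% with *Gm15441*, 16.4% with *Gm14703*, 14.2% with *Ntan1* and 11.1% with *Gm26885*), and of the other genes in the text so did *Ikzf5*, *Ifng*, *Uhrf1* and the markers *Cd79a*, *Alas2*, *Klra8* and *Klrb1c*. The 5 genes closest to the *Foxp3* profile were not searched for shared sequence. Flow cytometry and metabolite data were not analysed here.

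Named genes were the members, the targeted genes, in each list the most abundant gene per length and up to 4 with the largest change past the threshold, and the 5 genes closest to the *Foxp3* profile. A few genes of the lists and marker sets beyond these were singled out after their values were known. A gene of the FOXO list is not reported here, and the counts and medians leave it out. The members and the lists were chosen with earlier results of these data known.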

Additional observations from a re-analysis of the deposited data

How the results depend on the processing

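*Flicr* and *Foxp3* kept their direction and their call under every alternative run, and the *Flicr* to *Foxp3* log2 ratio ran from -0.73 to -0.55 with each library left out. Counts moved more. Across all genes 2565 passed in the main fit and between 391 and 3484 with 1 library left out, 4 members became between 2 and 5, and 42 of the 112 tested genes in the wider lists became between 14 and 50. At an adjusted p under 0.01, 453 genes passed (453 of them shared with the 2565), with 2 members (*Foxp3* and *Flicr*) and 15 list genes. The fall under that threshold follows from its construction, and leaving out a library also leaves fewer samples. No source used here states whether equal replicate numbers share a mouse or a day. Deviations from the group mean correlated across genes at 0.0534, -0.034 and -0.237 for numbers 1, 2 and 3. Not every library correlated best with its own number. With 3 libraries per label these values do not show a pairing and cannot exclude one. With the replicate block, 1235 genes passed against 2565, 24 list genes against 42 and 3 members, *Foxo3* missing the threshold (adjusted p = 0.0619 by edgeR), and the paired log2 ratio of *Flicr* to *Foxp3* was -0.65 (two-sided exact permutation p = 0.25 by sign flips, and 3 pairs allow no smaller value). Of the 51 genes that the naming rule gives (other genes in the text not counted), the block ended the call of 9 (*Foxo3*, *Ikzf2*, *Rara*, *Tcf7*, *Prmt1*, *Hdac7*, *Bcl2l11*, *Txnip* and *Plp2*). Of the other genes in the text it ended those of *Akt1*, *Dnmt1*, *Uhrf1*, *Smad4*, *Rela*, *Nfatc2*, *Ecm1*, *Nrp1*, *Ptpn22*, *Cd8a* and *Gata2*. For the 51, DESeq2 added 1 call (*Ets1*), limma-voom changed 0, RLE size factors ended 1 (*Plp2*) and no filter on low counts ended 5 and added 2. Of the members, *Flicr* had the fewest counts in every library, and how depth limits each member was not tested.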
